A study of Mus musculus with 22 samples.

Results

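Agrp neurons are cells of the hypothalamic arcuate nucleus that make agouti-related peptide (Agrp) and neuropeptide Y (Npy). Nuclei of these neurons were taken by the cell type that the authors annotated in single-nucleus RNA-seq (snRNA-seq) of the hypothalamus, which gave 341 of 24965 nuclei, or 1.37%. A separate annotated type, GABA15, was not among them. The study's own set of Agrp neurons for Day 1 held more nuclei than this annotation gives, so it may have included another type. All mice were ob/ob males of 11 weeks, which lack leptin, and 1 sample was 1 mouse. A single intracerebroventricular (icv) injection delivered fibroblast growth factor 1 (FGF1, 3 µg) or vehicle, and vehicle mice were pair-fed to the FGF1 mice. Hypothalami were collected 24 h later (Day 1) or on Day 5.

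On Day 1 there were 3 FGF1 mice (replicates 1, 2 and 3) with 145 Agrp nuclei and 3 vehicle mice (replicates 1, 2 and 3) with 82. On Day 5 there were 2 FGF1 mice (replicates 37 and 45) with 57 Agrp nuclei and 2 vehicle mice (replicates 28 and 38) with 57. The mice gave between 12 and 96 Agrp nuclei each and between 38970 and 193464 unique molecular identifiers (UMIs) over those nuclei. Median UMIs per Agrp nucleus ran from 1658 to 3775 over the mice. With a median of 1761 UMIs, FGF1 replicate 1 of Day 1 was within this range. It stood apart by its 96 nuclei and by 1.87% of its UMIs from ribosomal protein genes, against 0.715% to 1.32% in the other mice. Results that rested on it are given with and without it. Each of the 5 batches named in the deposited metadata held 1 FGF1 and 1 vehicle mouse of the same day. Of the barcodes, 318 occurred in more than 1 library, 6 Agrp nuclei carried such a barcode, and 0 barcodes were shared between Agrp nuclei.

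Agrp neurons are GABA-releasing cells that drive feeding. Agouti-related peptide blocks melanocortin receptors, Npy acts on its own receptors, and hormones such as leptin and insulin restrain the cells. In ob/ob mice the leptin signal is missing. The study asked how hypothalamic cells respond to icv FGF1, which lowers blood glucose in diabetic rodents.

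The nuclei carried the markers that their name calls for. Agrp was detected in 99.7% of the 341 nuclei and Npy in 99.4%, with a median of 30 and 29 UMIs per nucleus, and 338 nuclei held both. Other neurons, here and below, leave out GABA15. Among 18922 other neurons, 21.0% held an Agrp UMI and 18.1% an Npy UMI. Astrocytes, which should lack both peptides, held a UMI of Agrp in 32.1% and of Npy in 35.0% of nuclei. Median depth was 2352 UMIs in Agrp nuclei, 2618 in other neurons and 2693.5 in astrocytes, and the share of other neurons with a UMI of either peptide was below that of astrocytes. The other neurons included 59 unmapped nuclei that the authors' projection placed nearest the Agrp type, and the source of low counts outside Agrp nuclei was not tested. With a limit of 5 UMIs the share was 96.5% for Agrp in Agrp nuclei and 0.782% in other neurons.

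Among genes seen in at least 25% of Agrp nuclei, those with the highest ratio of mean level in Agrp nuclei to other neurons came next to the peptides. Levels are counts per 1000000 (CPM), a gene's UMIs over a mouse's nuclei of a type scaled to that common total. The ratio was 25.4 for Corin, a serine protease, and 24.4 for Lepr, the leptin receptor. It was 15.7 for Acvr1c, an activin-type receptor, 11.3 for Ghr, the growth hormone receptor, and 6.14 for Calcr, the calcitonin receptor. Ghr reached 3042 ± 946 CPM in Agrp nuclei (SD, n = 10 mice) against 269.9 ± 41.2 in other neurons. Gm38250, an antisense gene that overlaps Agrp on chromosome 8, had a ratio of 18.2, and the sources used here do not say whether counting used the strand. Cited1 (7.89), Atp7a (6.85), Prune2 (5.70), 1700024P16Rik (5.13), Lrrc1 (5.08), Ptprk (4.69) and Plce1 (4.64) completed the first 15 genes above that limit, and each of the 15 was higher in Agrp nuclei in 10 of 10 mice. These ratios describe the annotated type and are not a test, and GABA15 nuclei shared these genes at lower ratios, as given below.

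**Figure D1:**
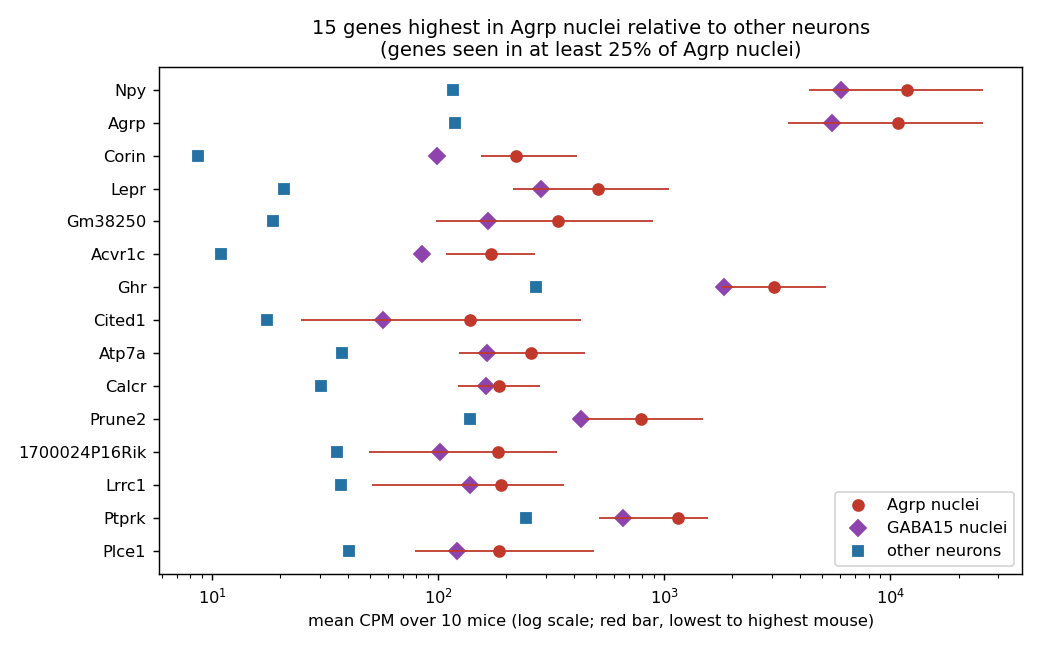
Mean CPM over 10 mice, on a log axis, of the 15 genes with the highest ratio of Agrp nuclei to other neurons among genes seen in at least 25% of Agrp nuclei. Red points are Agrp nuclei with a bar from the lowest to the highest mouse, diamonds are GABA15 nuclei and squares are other neurons. Npy and Agrp lie near 11875 and 10799 CPM in Agrp nuclei against 116.5 and 118.5 in other neurons.

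The arcuate transcription factor gene Otp was detected in 12.6% of Agrp nuclei, below the 25% limit, at 6.48 times its level in other neurons. Of the GABA genes, Gad2 had a UMI in 37.0% of Agrp nuclei, Gad1 in 16.7% and the vesicular transporter gene Slc32a1 in 4.11%. The glutamate transporter gene Slc17a6 was found in 6.16% and Slc17a7 in 0 nuclei. At the low end were Pde7b, with a ratio of 0.155, and Tenm2, a synaptic adhesion gene, with 0.205, both lower in Agrp nuclei in 10 of 10 mice.

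GABA15 nuclei shared the peptides. Agrp was detected in 99.3% and Npy in 98.0% of the 153 GABA15 nuclei, and 123 of them were projected by the authors onto the published Agrp type at a confidence of up to 0.749. Agrp nuclei had a projection confidence of 0.751 to 0.975. Results are therefore also given with both types summed where that changed them.

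Shares of Agrp nuclei were measured against all nuclei of the mouse. On Day 1 they were 1.93%, 1.30% and 1.43% in FGF1 replicates 1, 2 and 3 and 2.34%, 1.68% and 1.39% in vehicle replicates 1, 2 and 3. The groups overlapped (1.56% ± 0.331 against 1.80% ± 0.486, SD, n = 3 each, two-sided exact permutation p = 0.6, smallest possible p 0.1). On Day 5 they were 0.541% and 0.78% in FGF1 replicates 37 and 45 and 1.35% and 2.37% in vehicle replicates 28 and 38. Both FGF1 mice were below both vehicle mice (0.661% ± 0.169 against 1.86% ± 0.719, SD, n = 2 each, two-sided exact permutation p = 0.333). With 2 mice a group 0.333 is the smallest p that the design allows. A share depends on every other nucleus in the library and on which nuclei received the label. Fewer Agrp neurons, fewer recovered nuclei and a change in labelling therefore cannot be told apart.

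Agrp and Npy themselves were followed first, since they define the neurons. The label was projected from expression, which may include these peptides, so nuclei with little peptide may carry another label. The part of this selection in the peptide levels was not tested. Npy lies at chr6:49822710-49829507 on the plus strand and Agrp at chr8:105566698-105637393 on the minus strand (GRCm38, GENCODE), where the long Agrp gene model also overlaps Ctcf and Ripor1. The Npy promoter, 250 bases before to 50 after the RefSeq start (GRCm38.p6, chr6:49822460-49822759, plus strand), is shown because the transcript it drives gave the lowest unadjusted p of the pair on Day 5. None of the 6 motifs searched (listed with the Day 1 genes) was found in it, so no letter is in capitals.

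Npy: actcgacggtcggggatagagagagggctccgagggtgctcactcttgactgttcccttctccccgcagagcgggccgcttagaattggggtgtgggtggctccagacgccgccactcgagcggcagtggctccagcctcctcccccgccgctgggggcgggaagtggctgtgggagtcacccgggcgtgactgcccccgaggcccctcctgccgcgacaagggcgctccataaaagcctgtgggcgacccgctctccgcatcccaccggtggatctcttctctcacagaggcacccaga

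On Day 1, Agrp stood at 25695, 10157 and 9487 CPM in FGF1 replicates 1, 2 and 3. In vehicle replicates 1, 2 and 3 it stood at 4155, 14097 and 12343 CPM. The highest value was in FGF1 replicate 1 and the lowest in vehicle replicate 1, and the groups overlapped (log2 fold change 0.64 ± 0.53 SE, edgeR FDR 0.747). Npy ran alongside, at 25720, 7954 and 9335 CPM with FGF1 and 5085, 14247 and 15653 CPM with vehicle (0.38 ± 0.55, FDR 0.892). Without FGF1 replicate 1 both estimates changed sign, to -0.12 for Agrp and -0.49 for Npy.

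On Day 5 both peptides were lower in both FGF1 mice than in both vehicle mice, as were 16.5% of all genes tested. Agrp was at 3526 and 7138 CPM in FGF1 replicates 37 and 45 and at 10531 and 10861 CPM in vehicle replicates 28 and 38. The log2 fold change was -1.06 ± 0.34 (SE), with an unadjusted p of 0.0049 and an edgeR FDR of 0.51. Npy was at 4372 and 6817 CPM with FGF1 and at 12938 and 16632 CPM with vehicle. Its log2 fold change was -1.46 ± 0.33, with an unadjusted p of 0.00015 and an edgeR FDR of 0.0673, short of the 0.05 threshold used for calls. DESeq2 gave Npy an adjusted p of 0.0334 and GABA15 summed with Agrp nuclei an edgeR FDR of 0.0312.

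Counted per nucleus, the Day 5 means were 14.9 and 12.8 Agrp UMIs with FGF1 and 30.2 and 36.4 with vehicle. For Npy they were 18.5 and 12.2 against 37.1 and 55.8 UMIs. Thinned to 1500 UMIs per nucleus, which left out 25 of the 341 nuclei, the Npy means were 7.00 and 10.7 against 20.2 and 26.5 UMIs. The lower Npy level was thus present on 3 scales, and within each pair of mice of the same batch number the log2 ratio was -1.56 and -1.29. For Agrp the within-batch ratios were -1.58 and -0.61.

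GABA15 nuclei showed the same order for Npy on Day 5, with 3125 and 3485 CPM in FGF1 mice and 5923 and 6323 CPM in vehicle mice. Their Agrp level was 3641 and 3412 CPM with FGF1 and 4993 and 4316 CPM with vehicle. In the other neurons, most of which held no peptide UMI, Npy was at 25.6 and 87.7 CPM against 115 and 104 CPM. The effect of FGF1 on Npy on Day 5 was lower than on Day 1 by 1.78 ± 0.80 on the log2 scale, and on Agrp by 1.64 ± 0.80 (edgeR interaction FDR 0.922 and 0.925). A change of the effect between days was therefore not shown for either peptide.

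**Figure D2:**
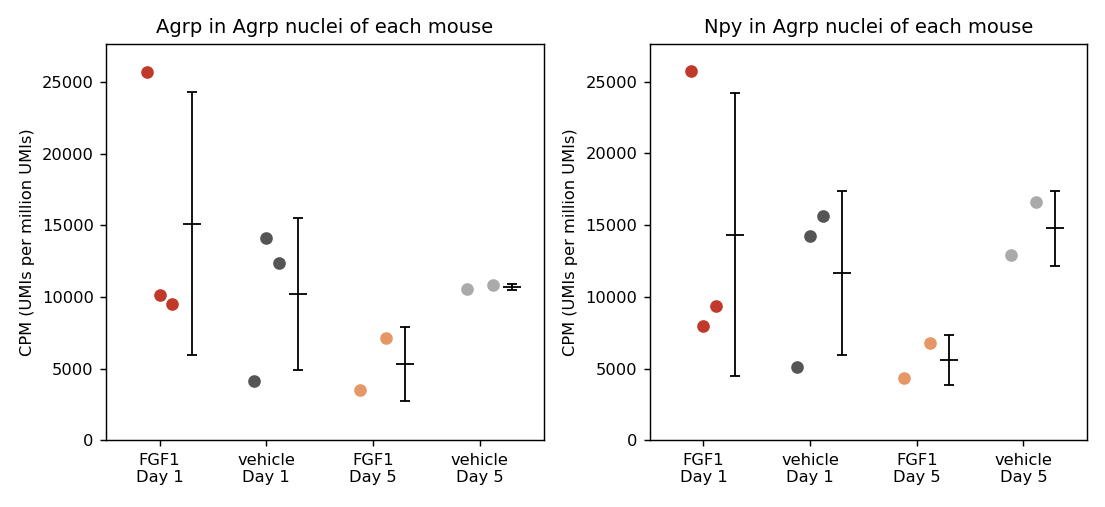
CPM of Agrp and Npy in the Agrp nuclei of each of the 10 mice, 1 point per mouse with the group mean ± SD in black beside the points. On Day 1 the groups overlap, and on Day 5 both FGF1 mice lie below both vehicle mice for Agrp (3526 and 7138 against 10531 and 10861) and Npy (4372 and 6817 against 12938 and 16632).

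Across nuclei within a mouse, Agrp and Npy levels went together, with a Pearson r of the log levels between 0.297 and 0.604 over the 10 mice. Both values of a nucleus share its depth, and nuclei of a mouse are not replicates, so this is a description.

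On Day 1, 7 of 2350 tested genes were called at an edgeR FDR below 0.05, which is 0.298% of the genes tested, and all 7 were higher with FGF1. They encode M-type potassium channel subunits (Kcnq3 and Kcnq5), a protocadherin (Pcdh15), a secreted protease inhibitor (Serpina3n), an inhibitor of cytokine signalling (Socs2), a membrane metalloprotease (Adam12) and a glycosyltransferase (Wbscr17, Galnt17 in RefSeq). At an unadjusted p below 0.05 there were 141 genes higher (6%) and 103 lower (4.38%). Each of the 7 separated the groups without overlap, as did 171 of the 2350 genes (7.28%) in this direction. A gene near 0 in vehicle mice can enter the test only through the FGF1 group, and then only as higher. Serpina3n, Socs2 and Adam12 had 3, 7 and 5 UMIs over the vehicle mice.

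The promoters of the 7 genes and of Agrp, Npy, Cntn5 and Ly6h were looked up in RefSeq (GRCm38.p6), which matched 5 of the 11. A search of both strands covered 6 motifs, namely TTCNNNGAA (a STAT motif, in 8.30% of 32851 promoters of this length), TGACGTCA (CREB, 1.79%), CACGTG (E-box, 7.15%), GTAAACA (forkhead, 3.65%), TGACTCA (AP-1, 5.20%) and TATAAA (a core promoter box, 13.6%). The Pcdh15 promoter (chr10:73821617-73821916, plus strand) and the Serpina3n promoter (chr12:104406458-104406757, plus strand) are shown because Pcdh15 had the most UMIs among the 7 genes and Serpina3n the highest fold change. Capitals mark the TATAAA match that begins 33 bases before the Pcdh15 start. Serpina3n, Kcnq5 and Npy held no match, and Cntn5 held TTCTAAGAA 246 bases before its start.

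Pcdh15: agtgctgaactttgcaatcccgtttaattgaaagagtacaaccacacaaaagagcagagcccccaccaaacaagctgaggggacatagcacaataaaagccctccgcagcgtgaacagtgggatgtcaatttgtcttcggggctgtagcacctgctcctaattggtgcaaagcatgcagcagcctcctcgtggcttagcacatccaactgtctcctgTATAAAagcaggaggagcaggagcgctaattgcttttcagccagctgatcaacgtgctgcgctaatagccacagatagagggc

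Serpina3n: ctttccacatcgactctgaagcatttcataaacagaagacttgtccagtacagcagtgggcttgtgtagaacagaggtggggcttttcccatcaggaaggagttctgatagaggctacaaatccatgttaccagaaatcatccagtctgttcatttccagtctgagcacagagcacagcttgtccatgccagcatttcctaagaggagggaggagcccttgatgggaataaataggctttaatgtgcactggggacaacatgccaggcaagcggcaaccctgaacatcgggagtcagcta

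Pcdh15, a protocadherin known from the links between hair cell stereocilia, was the gene with the most UMIs among the 7. It lies at chr10:73099342-74649737, plus strand, and the RefSeq start used above is inside this GENCODE span, downstream of other starts. Levels were 2667, 3103 and 3154 CPM in FGF1 replicates 1, 2 and 3 and 841, 839 and 616 CPM in vehicle replicates 1, 2 and 3. Every FGF1 mouse was above every vehicle mouse (log2 fold change 1.95 ± 0.28, edgeR FDR 0.0098). Within the 3 batches the log2 ratio was 1.88 to 2.09. At 1500 UMIs per nucleus, 83.5%, 90.9% and 87.5% of nuclei held a Pcdh15 UMI with FGF1 against 51.7%, 57.9% and 60.0% with vehicle. GABA15 nuclei of the same mice held Pcdh15 at 2034, 3049 and 1662 CPM with FGF1 and 891, 816 and 1439 CPM with vehicle.

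Kcnq3 (chr15:65986387-66286642, minus strand) and Kcnq5 (chr1:21398403-21961942, minus strand) encode subunits of the M-current, which damps firing. Kcnq3 was at 558, 817 and 763 CPM with FGF1 and 155, 150 and 180 CPM with vehicle (2.16 ± 0.30, FDR 0.0098). Kcnq5 was at 501, 807 and 1068 CPM with FGF1 and 171, 212 and 77.0 CPM with vehicle (2.20 ± 0.38, FDR 0.041). The lowest FGF1 mouse was above the highest vehicle mouse by more than the range within the vehicle group for both genes. With GABA15 nuclei added, Kcnq5 had an FDR of 0.0523 and Kcnq3 of 0.0258. Wbscr17, at 476, 683 and 1195 CPM with FGF1 and 212, 168 and 77.0 CPM with vehicle, rose likewise (2.18 ± 0.41, FDR 0.045).

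Serpina3n, a serine protease inhibitor of the acute phase, lies at chr12:104406729-104414329 on the plus strand beside paralogues, so reads could be shared with them. Its UMIs numbered 87, 34 and 8 in the FGF1 mice and 0, 1 and 2 in the vehicle mice (log2 fold change 4.82 ± 0.74, edgeR FDR 0.0163). The levels were 449.7, 352 and 203 CPM against 0, 8.83 and 51.3 CPM. A level of 0 in the first vehicle mouse allows up to 24.5 CPM, 3 counts of its 122512 UMIs, for counting error only. Serpina3n also stood higher in other cells of the same FGF1 mice. In astrocytes it was at 807 ± 235 CPM with FGF1 and 24.8 ± 14.3 CPM with vehicle (SD, n = 3 each), and in tanycytes at 193 ± 61.1 and 58.2 ± 46.9 CPM. In other neurons it was at 39.7 against 4.45 CPM (log2 fold change 3.20 ± 0.46, FDR 0.138). The effect in Agrp nuclei minus that in other neurons was 1.74 on the log2 scale (FDR 0.757).

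The part of RNA from astrocytes in this result was not tested. The 7 astrocyte markers summed to 165 to 238 CPM in Agrp nuclei of FGF1 mice and to 25.7 to 351 CPM in those of vehicle mice on Day 1, with overlap. Of these, Aqp4 had 1 UMI in all Agrp nuclei of the FGF1 mice and 0 in the vehicle mice. Gfap, an astrocyte filament gene too low to be tested, stood higher in the FGF1 mice without overlap, with 19, 6 and 1 UMIs (98.2, 62.1 and 25.4 CPM) against 0, 1 and 0 UMIs (0, 8.83 and 0 CPM). In other neurons Gfap was at 44.7 against 5.87 CPM (log2 fold change 3.01 ± 0.45, FDR 0.138).

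Socs2, which dampens growth hormone and cytokine receptors, lies at chr10:95385362-95417180, minus strand. Its UMIs numbered 41, 17 and 10 in the FGF1 mice and 5, 2 and 0 in the vehicle mice (log2 fold change 3.04 ± 0.55, FDR 0.045). In FGF1 replicate 3, a single nucleus held 5 of the 10 UMIs. DESeq2 gave no adjusted p for Socs2 or Adam12. Adam12 (chr7:133883199-134232146, minus strand) had 28, 24 and 14 UMIs with FGF1 and 4, 0 and 1 with vehicle (3.58 ± 0.67, FDR 0.045), and 6 of the 14 UMIs in FGF1 replicate 3 came from 1 nucleus. With batch as a term neither was called, at an FDR of 0.0692 for Adam12 and 0.101 for Socs2. Tanycytes of the same mice held Adam12 at 233 ± 104 CPM with FGF1 and 30.4 ± 34.6 CPM with vehicle. Summed tanycyte markers in Agrp nuclei were 72.4 to 229 CPM with FGF1 and 61.8 to 245 CPM with vehicle, and their part in the result was not tested.

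**Figure D3:**
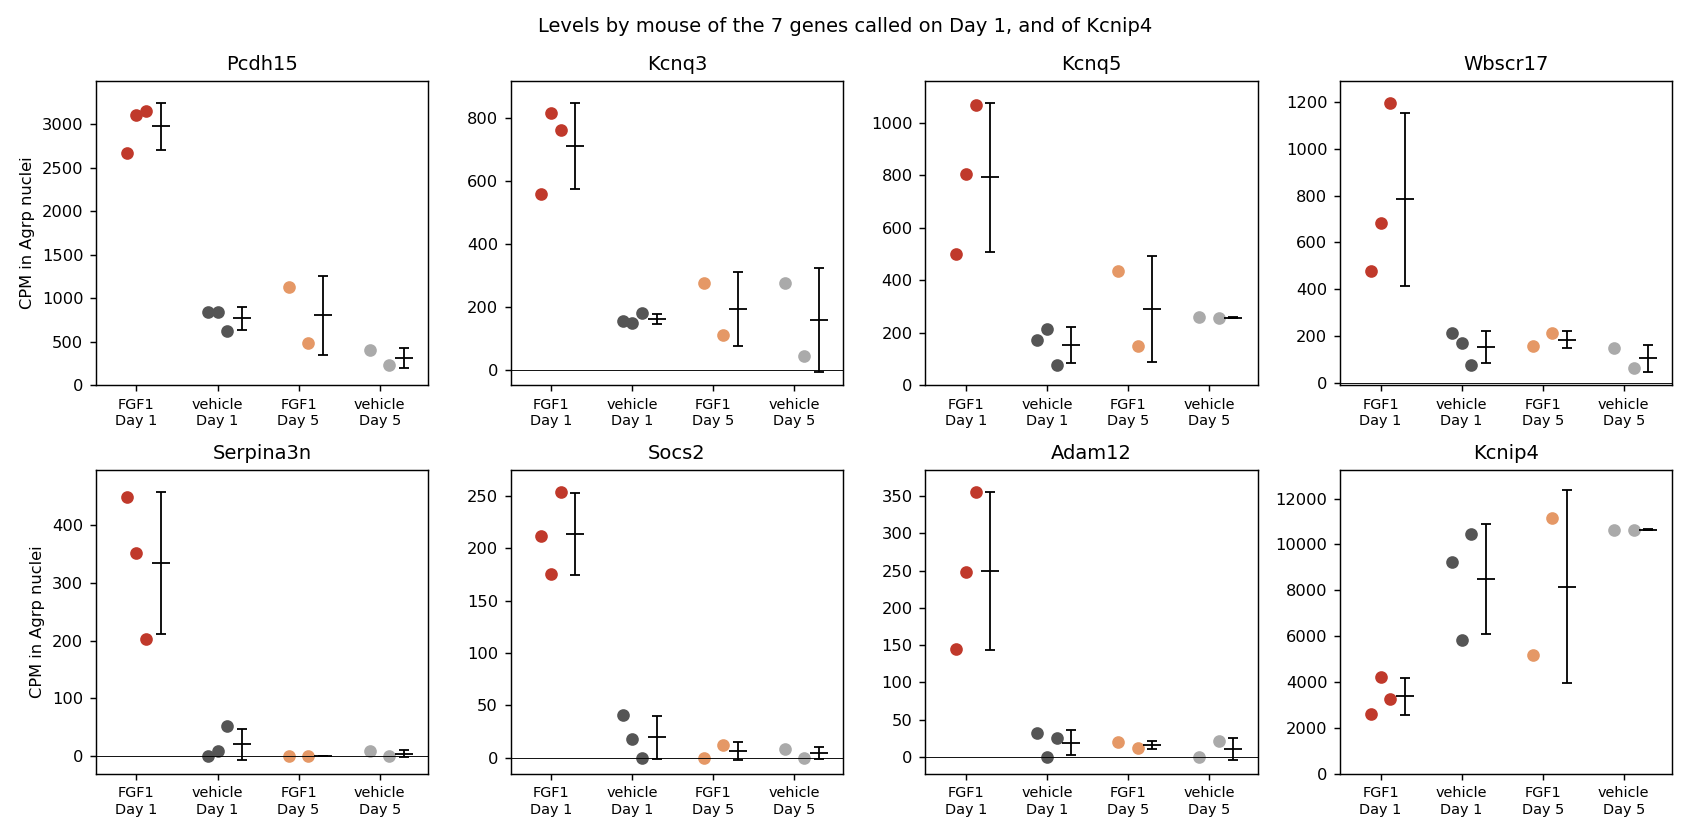
CPM in Agrp nuclei of each mouse for the 7 genes called on Day 1 and for Kcnip4, 1 point per mouse with the group mean ± SD in black beside the points. On Day 1 all 3 FGF1 mice lie above all 3 vehicle mice for the 7 genes and below them for Kcnip4 (2621 to 4241 against 5830 to 10444).

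The 7 calls depended on which mice were included. Without FGF1 replicate 2 or without vehicle replicate 1 no gene passed the edgeR threshold, and without FGF1 replicate 1 there were 22 calls, 6 of them among the 7. Every one of the 7 kept its direction in each of these fits. Other signals moved with treatment on Day 1, and their part was not tested: 4 pan-neuronal genes summed to 1145 to 1748 CPM in FGF1 mice and to 2027 to 2844 CPM in vehicle mice, and 6 oligodendrocyte markers to 76.3 to 145 CPM and 274 to 408 CPM.

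Gene lists were then read by the number of members called. Of 15 tested potassium channel genes, 2 (Kcnq3 and Kcnq5) were called higher by edgeR and 0 lower, where 0.298% of all genes tested were called. At an unadjusted p below 0.05, 3 members were higher and 1 lower, against 6% and 4.38% of all genes. The list median was 0.19 on the log2 scale against 0.01 over all genes tested, and it was -0.02 without FGF1 replicate 2 and -0.01 without FGF1 replicate 3. The lower member, Kcnip4, which encodes a potassium channel interacting protein, was at 2621, 4241 and 3256 CPM with FGF1 and 9215, 5830 and 10444 CPM with vehicle (-1.31 ± 0.29, FDR 0.0885, DESeq2 adjusted p 0.0136). Of 21 tested sodium, calcium and cation channel genes 0 were called by edgeR, with 2 higher and 4 lower at an unadjusted p below 0.05 (6% and 4.38% of all genes). Trpm3, a cation channel gene, was at 114, 114 and 153 CPM with FGF1 and 433, 450.5 and 334 CPM with vehicle (-1.72 ± 0.34, FDR 0.0556, DESeq2 adjusted p 0.0486). The separation of Kcnip4 and Trpm3 on Day 1 was complete in each case, as for 190 of 2350 genes (8.09%) in the lower direction. On Day 5 the within-batch log2 ratios of Trpm3 went the other way, at 2.91 and 1.42 (edgeR interaction 4.15 ± 0.99, FDR 0.672).

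Of 12 tested cadherins and protocadherins only Pcdh15 was called, where 0.298% of all genes tested were. The list median was -0.27. With a mouse left out it ran from -0.76 (without FGF1 replicate 2) to 0.03 (without FGF1 replicate 1). Of 49 tested genes for synaptic adhesion and guidance 0 were called, with 9 higher and 4 lower at an unadjusted p below 0.05 (6% and 4.38% of all genes) and a median of 0.09, which was -0.27 without FGF1 replicate 2 and -0.02 without vehicle replicate 3. Among the higher, Ncam2, a cell adhesion gene, was at 2243, 2627 and 2900 CPM with FGF1 and 882, 601 and 1309 CPM with vehicle (1.54 ± 0.30, FDR 0.0556, DESeq2 adjusted p 0.00258). Sema6d, a semaphorin, had a log2 fold change of 2.03 ± 0.43 (FDR 0.0766) and Nrg3, a neuregulin, of 1.05 ± 0.26 (FDR 0.11). A list of 10 genes that the study named for Agrp neurons from these same samples held 4 of the 7 calls, which is not independent evidence of their direction.

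Receptors for hormones gave no call among 7 tested of 34 measured genes, with no member at an unadjusted p below 0.05. Lepr was at 439, 445 and 432 CPM with FGF1 and 604, 291 and 1052 CPM with vehicle, the latter spread on both sides of the FGF1 mice (-0.44 ± 0.39, FDR 0.763). Ghr (-0.09 ± 0.30) and Calcr (0.05 ± 0.37) were within 1 SE of 0. Of 8 tested genes for leptin and insulin signalling, 0 were called and 2 were higher at an unadjusted p below 0.05 (6% of all genes). Stat3, the transcription factor downstream of the leptin receptor, was at 264, 445 and 585 CPM with FGF1 and 220, 185 and 103 CPM with vehicle (1.19 ± 0.38, FDR 0.241). In other neurons its log2 fold change was 1.51 ± 0.25 (FDR 0.173), and the difference between the populations was -0.50 (FDR 0.9). Irs4, an insulin receptor substrate, had 25, 13 and 4 UMIs with FGF1 and 3, 1 and 2 with vehicle (2.46 ± 0.60, FDR 0.106).

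The targets of the injected factor were next. Of 9 genes for FGF receptors and related proteins, Fgfr2 alone had enough UMIs for a test. Its level was 289, 228 and 254 CPM with FGF1 and 539, 415 and 385 CPM with vehicle. Each FGF1 mouse was below each vehicle mouse, as for 8.09% of all genes tested, yet the change did not pass (-0.76 ± 0.30, unadjusted p 0.0268, FDR 0.386). In other neurons the estimate was -0.33 ± 0.20. On Day 5 Fgfr2 was at 394 and 346 CPM against 462 and 660 CPM (-0.62 ± 0.35, FDR 0.882). Fgfr1 had 8, 2 and 0 UMIs in the FGF1 mice and 3, 4 and 0 in the vehicle mice of Day 1, too few to be compared at this depth. Of 14 feedback genes of the MAPK pathway 2 could be tested, Spred1 and Spred2 (0.22 and 0.21), and of 21 measured immediate early genes 0 could be tested in either day's comparison.

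Genes that process neuropeptides gave 0 calls among 13 tested, with 0 higher and 2 lower at an unadjusted p below 0.05 (6% and 4.38% of all genes). The list median was -0.31, or -0.16 without FGF1 replicate 3 and -0.08 without vehicle replicate 3. Pcsk2, the prohormone convertase, was at 289, 238 and 305 CPM with FGF1 and 571, 468 and 924 CPM with vehicle (-1.15 ± 0.32, FDR 0.182). Of 26 other neuropeptide genes measured, 2 had enough UMIs for a test, and a gene can pass that filter through the group in which it is high. Gal was at 331, 176 and 280 CPM against 73.5, 70.7 and 0 CPM (2.19 ± 0.55, FDR 0.118), and Sst was at 429, 186 and 331 CPM against 106, 177 and 51.3 CPM (1.42 ± 0.48, FDR 0.27). The share of Agrp nuclei of the FGF1 mice with a UMI was 17.2% for Gal and 28.3% for Sst, no higher than the 22.4% and 29.7% in astrocytes of these mice, which should lack both peptides. By level, Gal was at 262 ± 79.0 CPM in Agrp nuclei and 82.5 ± 66.0 CPM in astrocytes of the FGF1 mice. In vehicle mice it was at 48.0 ± 41.6 and 73.5 ± 110 CPM (SD, n = 3 each). Whether Agrp neurons express either peptide was not tested. Of 7 tested genes of injury and regeneration (21 measured), Serpina3n was called, where 0.298% of all genes tested were. Higher without overlap were 4 (Gal, Serpina3n, Sox11 and Stat3), as were 7.28% of all genes tested. The same limit of the filter holds for Gal and Serpina3n, so the 4 are not read against that share.

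Receptors for glutamate and GABA gave 0 calls among 25 tested, with 3 higher and 5 lower at an unadjusted p below 0.05 (6% and 4.38% of all genes). Genes for endoplasmic reticulum folding (6 tested), glucocorticoid-responsive and clock genes (6), nuclear-encoded oxidative phosphorylation (29) and cytosolic ribosomal proteins (49) had 0 calls each. The ribosomal protein median was 0.38 on Day 1, which turned to -0.42 without FGF1 replicate 1 and ran from 0.24 to 0.70 with any other Day 1 mouse left out. On Day 5 it was -0.32, or -0.11 without vehicle replicate 38, -0.51 without FGF1 replicate 37 and -0.83 without vehicle replicate 28. GABA synthesis and transport had 2 members tested and the identity transcription factors 1, Isl1, with 0 calls.

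By Day 5 the list of calls was short and held other genes. Of 1345 tested, 2 were called (0.149%), and at an unadjusted p below 0.05 there were 28 higher (2.08%) and 50 lower (3.72%). Cntn5, a contactin for cell adhesion (chr9:9660891-10904775, minus strand), was at 3171 and 2685 CPM in FGF1 replicates 37 and 45 and 973 and 724 CPM in vehicle replicates 28 and 38. Both FGF1 mice were above both vehicle mice (1.70 ± 0.33, edgeR FDR 0.0204, DESeq2 adjusted p 0.0237). GABA15 nuclei had 5735 and 2419 CPM of Cntn5 with FGF1 and 1734 and 1703 CPM with vehicle, and in other neurons the log2 fold change was 0.39 ± 0.18. On Day 1 Cntn5 in Agrp nuclei had a log2 fold change of 0.11 ± 0.41.

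Ly6h, a GPI-linked modulator of nicotinic receptors (chr15:75551268-75567255, minus strand), fell. It was at 118 and 74.2 CPM with FGF1 and 803 and 447 CPM with vehicle (-2.86 ± 0.44, edgeR FDR 0.00147). These are 6 and 6 UMIs against 99 and 21. In other neurons of the same mice the log2 fold change was -1.77 ± 0.67 (FDR 0.493), and astrocytes held Ly6h at 50.8 ± 9.14 CPM with FGF1 and 278 ± 227 CPM with vehicle (SD, n = 2 each). On Day 1 the highest Ly6h level, 1783 CPM, was in FGF1 replicate 1. With batch as a term both Day 5 calls had an FDR of 0.103, in a fit with 1 residual degree of freedom.

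The Day 1 genes were followed to Day 5. Pcdh15 was at 1123 and 482 CPM with FGF1 and 397 and 234 CPM with vehicle, without overlap (1.17 ± 0.39, unadjusted p 0.0071, FDR 0.51). Kcnq3 was at 276 and 111 CPM against 276 and 42.6 CPM. Its edgeR estimate was -0.17 ± 0.57, although the mean CPM was higher with FGF1 and the within-batch log2 ratios were 0.03 and 1.14, so no direction is given. Kcnq5 was at 433 and 148 CPM against 259 and 256 CPM (0.01 ± 0.46). Wbscr17 was at 158 to 210 CPM with FGF1 and 63.9 to 146 CPM with vehicle, with within-batch log2 ratios of 0.16 and 1.54, and was not called. Serpina3n, Socs2 and Adam12 had 0, 1 and 2 UMIs over both FGF1 mice and 1 each over both vehicle mice, too few to be compared at this depth. Whether the effect changed between the days was tested over all 10 mice, and 0 of 2874 genes passed (0%), with 153 (5.32%) at an unadjusted p below 0.05 and 0 called by DESeq2. The estimates for Kcnq3 and Kcnq5 were -2.20 ± 0.69 and -2.11 ± 0.64 (FDR 0.811 for both), that for Wbscr17 was -1.51 ± 0.68 (FDR 0.888) and that for Pcdh15 was -0.71 ± 0.53 (FDR 0.925).

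Synaptic adhesion genes had a list median of 0.42 on Day 5 against -0.01 over all genes. It was 0.24 without FGF1 replicate 37, 0.26 without vehicle replicate 38 and 0.83 without vehicle replicate 28. Of 43 members 17 were higher and 2 lower without overlap, against 20.4% and 16.5% of all 1345 genes. Only Cntn5 was called, where 0.149% of all genes were. Cntnap5a, a contactin-associated gene, was at 551 and 322 CPM against 195 and 149 CPM (1.18 ± 0.41, FDR 0.51), and Nlgn1, a neuroligin chosen after its values were seen, at 2954 and 1435 CPM against 1378 and 660.2 CPM (0.99 ± 0.38, FDR 0.589). Hormone receptors, peptide processing, leptin and insulin signalling, channels, glutamate and GABA receptors and ribosomal protein genes had 0 edgeR calls on Day 5.

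To see which effects went beyond other neurons of the same mice, the Day 1 effect in Agrp nuclei was tested against that in other neurons, with the mouse as a term and GABA15 nuclei left out of the reference. Of 12486 genes, 51 passed (0.408%), of which 30 (0.24%) had the higher and 21 (0.168%) the lower effect in Agrp nuclei. The fit shares 1 spread per gene between the large sums of other neurons and the small sums of Agrp nuclei. Its common biological coefficient of variation was 0.117, against 0.303 for Agrp nuclei alone on Day 1, over different sets of genes. The SE and FDR of this fit may therefore understate the spread of Agrp sums. In other neurons alone, 0 of 14784 genes were called on Day 1 by edgeR, with 1175 (7.95%) at an unadjusted p below 0.05. The excess was 2.02 ± 0.32 for Kcnq3 (FDR 9.8e-07), where other neurons gave 0.13 ± 0.20. It was 1.84 ± 0.31 for Wbscr17, 1.45 ± 0.27 for Pcdh15, 1.57 ± 0.32 for Kcnq5 and 2.95 ± 0.59 for Adam12, all at an FDR of 0.00119 or below. GABA15 nuclei of the same mice, 5 to 26 per mouse, also had higher mean levels of these genes with FGF1 (SD, n = 3 each). Kcnq3 was at 522 ± 59.5 against 260 ± 124 CPM and Kcnq5 at 817 ± 289 against 305 ± 112. Wbscr17 was at 398 ± 58.0 against 186 ± 101 and Adam12 at 148 ± 55.7 against 28.7 ± 26.2. A difference of these effects between Agrp and GABA15 nuclei was not tested. For Serpina3n and Socs2 (1.61 ± 0.62, FDR 0.484) a difference from other neurons was not shown.

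The count fell to 0 of 12486 when differences within mice were tested with limma and to 8 without vehicle replicate 1. Against GABA neuron types alone 12 of 1147 genes were called, 9 of them among the 51. Only 34 of the 51 could be tested against that reference. Expression of the gene with the lowest p, Hcrt, is a case of 1 nucleus. Hcrt encodes orexin, made by lateral hypothalamic neurons. FGF1 replicate 1 held 308 of its UMIs and 290 of them, 94.2%, lay in 1 Agrp nucleus.

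Of 115 tested genes for synaptic adhesion and guidance, 1 was called with a higher and 3 with a lower effect in Agrp nuclei, against 0.24% and 0.168% of all genes. On the higher side Ppfia2, Lcorl and Hs2st1 are described here, a choice made after their values were seen. Ppfia2, a liprin of the presynaptic active zone, was at 1530, 2079 and 1908 CPM with FGF1 and 1029, 645 and 693 CPM with vehicle in Agrp nuclei, while other neurons gave a log2 fold change of -0.01 ± 0.24 (difference 1.22 ± 0.27, FDR 0.00395). Lcorl, a nuclear protein gene, was at 501, 827 and 636 CPM against 122, 212 and 308 CPM (difference 2.04 ± 0.31, FDR 1.77e-07). Hs2st1, a heparan sulfate sulfotransferase, was at 274, 279 and 356 CPM against 49.0, 106 and 103 CPM (difference 1.67 ± 0.39, FDR 0.00832). Each of these genes separated the groups in Agrp nuclei, as did 7.28% of all genes tested on Day 1 in this direction. None passed the Day 1 test there (FDR 0.0974, 0.0628 and 0.0969). The contrast that picked them uses the same Agrp sums, so their separation is not further support.

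On the lower side stood Ntng1, the netrin-G1 adhesion gene, at 160, 134 and 50.9 CPM with FGF1 and 400, 194 and 308 CPM with vehicle in Agrp nuclei. Other neurons went the other way (0.98 ± 0.24, FDR 0.409), and the difference was -2.14 ± 0.34 (FDR 1.6e-06). Kcnip4 had a difference of -1.19 ± 0.26 (FDR 0.00395) and Trpm3 of -1.82 ± 0.35 (FDR 0.000363), with near 0 in other neurons for both (-0.09 ± 0.22 and 0.12 ± 0.26). Vwc2l, a secreted protein gene, was at 155, 186 and 127 CPM against 391.8, 353 and 949 CPM (difference -1.40 ± 0.31, FDR 0.005). Grm5, a metabotropic glutamate receptor, had a difference of -1.35 ± 0.31 (FDR 0.00651). It was the only one of 37 tested receptors for glutamate and GABA that passed, where 0.408% of all genes passed.

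**Figure D4:**
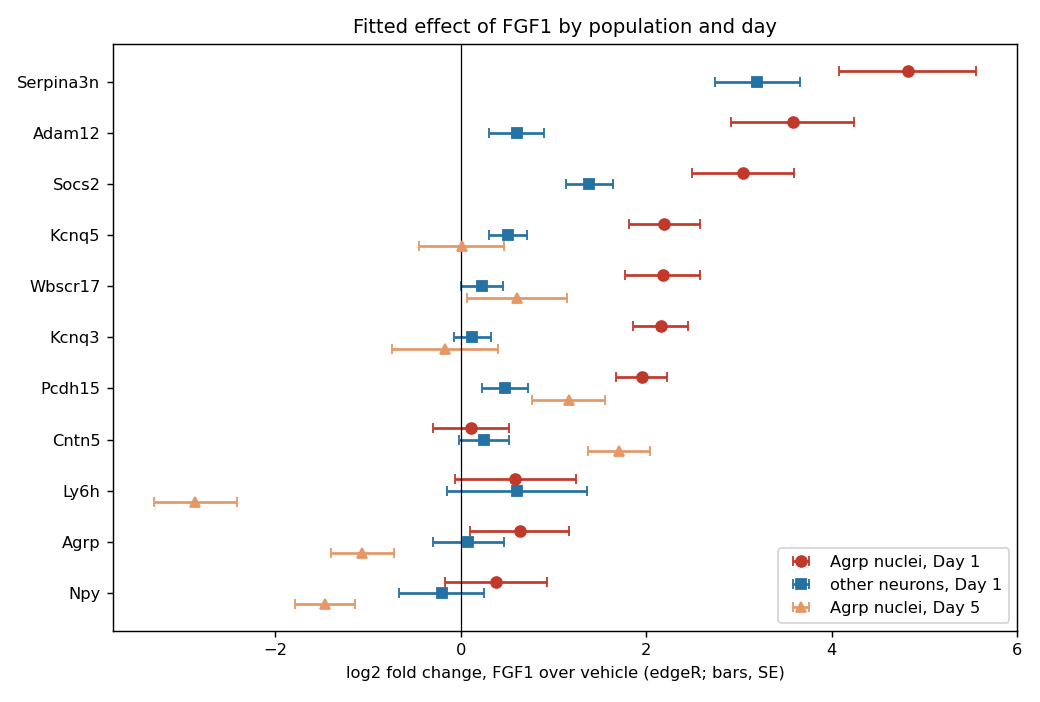
Log2 fold change of FGF1 over vehicle with SE from edgeR for the genes named on the vertical axis, with red circles for Agrp nuclei on Day 1, blue squares for other neurons on Day 1 and orange triangles for Agrp nuclei on Day 5. For Kcnq3 the Day 1 estimate is 2.16 in Agrp nuclei and 0.13 in other neurons, and on Day 5 it is -0.17 in Agrp nuclei, where the within-batch ratios are above 0.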

How the data were processed

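Nuclei of 10 mice were sequenced with droplet 3' libraries, and each mouse was placed in its group by its label. The authors aligned reads with Cell Ranger 1.2 to mouse GRCm38 with introns included, discarded nuclei outside their gene and mitochondrial limits, removed genes seen in fewer than 5 nuclei, ran no doublet caller on nuclei, and deposited raw UMI counts per gene and nucleus. They also deposited normalized values, which are corrected SCTransform counts on a natural log scale after adding 1, of which only Agrp and Npy were used. The confidence of each projected label is a fraction that the authors deposited, with labels kept above 75%. Whole cells, from which neurons had been removed, were not used here. Columns of fold changes or p-values by the authors were not used.

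Counts of Agrp nuclei were summed per mouse (at least 10 nuclei). edgeR 4.0.16 in R 4.3.3 (filterByExpr, TMM scaling, and the quasi-likelihood functions glmQLFit with robust on and glmQLFTest) was run for FGF1 against vehicle on each day without covariates, the effects of the 2 days over all mice, and Agrp nuclei with other neurons on Day 1 with the mouse as a term. Genes were called at a Benjamini-Hochberg FDR below 0.05 over all genes tested, and the SE is the one implied by the F statistic. Levels in the text are plain CPM, and intervals or floors (3 counts) cover counting error only. No Agrp nucleus was over the 5% limit. Alternatives used DESeq2 1.42.0, limma 3.58.1 on log2 CPM (prior count 2), RLE scaling, no filter, a batch or replicate term, nuclei thinned to 1500 UMIs, and each mouse left out. The scripts were tested on simulated data. Within-batch ratios added 0.5 UMIs to each count.

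Named genes were the called genes (up to 15 higher and 10 lower per comparison by p), Agrp, Npy, the FGF receptors, the called members of each of 21 lists and up to 4 others in list order. The members, the lists and this rule were chosen with earlier results of these data known. Adding GABA15 nuclei and the Timp1 bound and list medians without each mouse were chosen after seeing the data. Gene positions are from GENCODE.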

Additional observations from a re-analysis of the deposited data

Results flagged for a closer look

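The difference itself was tested in edgeR as the interaction of treatment and cell type, with the mouse as a term. It called 51 of 12486 genes on Day 1, and limma on differences per mouse called 0. Values below are the log2 effect in Agrp nuclei minus that in other neurons. Among the 15 with the lowest p on the higher side, the difference was 4.99 for Hcrt, 2.04 for Lcorl, 2.02 for Kcnq3, 1.84 for Wbscr17, 1.45 for Pcdh15, 2.95 for Adam12, 1.57 for Kcnq5 and 1.22 for Ppfia2. It was 3.78 for Sh3pxd2b, 1.24 for Galntl6, 1.27 for Arhgef28, 1.41 for Magi3, 1.67 for Hs2st1, 3.24 for Cemip and 1.57 for Ppp4r4. The value for Hcrt came from 1 nucleus of FGF1 replicate 1. Sh3pxd2b, a scaffold protein of podosomes, had 17, 15 and 14 UMIs in FGF1 replicates 1, 2 and 3 and 1, 1 and 0 in the vehicle replicates. Cemip, a hyaluronan-binding protein, had 14, 17 and 3 UMIs against 0, 3 and 0.

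On the lower side the 10 genes with the lowest p gave -2.14 for Ntng1, -1.82 for Trpm3, -1.72 for Il1rapl2, -2.20 for Gm12027, -1.19 for Kcnip4, -1.53 for Tmeff2, -1.58 for Alcam, -1.40 for Vwc2l, -1.39 for Opcml and -1.21 for Dclk1. Opcml was at 233, 517 and 102 CPM in Agrp nuclei of the FGF1 mice and 792, 804 and 565 CPM in those of the vehicle mice, while other neurons gave a log2 fold change of 0.12 ± 0.22.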

How the results depend on the processing

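The Day 1 count of 7 genes was 17 with DESeq2 (5 shared), 35 without a filter on low counts (7 shared), 12 with GABA15 summed with Agrp nuclei and 20 of 791 at 1500 UMIs per nucleus, and 0 to 22 with a mouse left out. It stayed within 1.5 times under RLE scaling (7) and a batch term (5). The replicate block left 2 calls. To look for pairing, each Day 1 mouse's deviation from its group mean of log2 CPM was correlated with that of mice in the other group. Over 2350 genes these deviations had correlations of -0.227, -0.113 and 0.177 for same-numbered mice and of -0.187, 0.129 and -0.296 for same-batch mice. A pairing of the mice was shown by neither number nor batch. So few correlations cannot settle it, and they are not independent, since deviations within a group cancel out. The Day 5 count of 2 was 0 with batch as a term, 5 without a filter, 6 with GABA15 summed with Agrp nuclei, 4 at 1500 UMIs and 0 to 12 with a mouse left out, where without vehicle replicate 28 it was 0 and without FGF1 replicate 45 it was 12. The interaction of day and treatment had 1 call with batch as a term (Trpm3), 2 without a filter and 0 to 2 with a mouse left out. Against other neurons, the count of 51 was 12 of 1147 with the small GABA-labelled types as reference, where 34 of the 51 could be tested. It was 0 with limma on differences per mouse, 13 at 1500 UMIs and 8 to 36 with a mouse left out. Hcrt ran from -3.83 (reversed, without FGF1 replicate 1) to 11.27 with a mouse left out. Day 1 log2 fold changes with a mouse left out ran from -0.12 to 0.97 for Agrp and -0.49 to 0.67 for Npy. Npy on Day 1 was also reversed in UMIs per nucleus (-0.0929) and in the authors' normalized values (-0.16). On Day 5, Npy passed the threshold with DESeq2 (-1.46), GABA15 summed with Agrp nuclei (-1.34) and 1500 UMIs (-1.52). The Day 5 range with a mouse left out was -1.66 to -0.61 for Agrp and -1.82 to -1.13 for Npy. Both passed without FGF1 replicate 45, a fit with 1 FGF1 mouse. In every Day 5 fit with a mouse left out, the lone mouse is assumed to vary like the other group. The Day 1 difference in share of nuclei ranged from -0.451 to 0.0232 percentage points and was reversed without vehicle replicate 1. The causes were not tested. With 12 to 96 nuclei per mouse, genes with few UMIs could not be compared at this depth.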

Other observations

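Timp1, a tissue inhibitor of metalloproteases, had too few UMIs to enter the Day 1 comparison in Agrp nuclei. It had 44, 10 and 3 UMIs in Agrp nuclei of FGF1 replicates 1, 2 and 3 and 0 in all 3 vehicle mice, at least 15.8-fold higher against a floor of 3 counts over the vehicle group. The bound was 8.75-fold without FGF1 replicate 1, 8.78-fold without vehicle replicate 1 and 9.31-fold without vehicle replicate 2. Timp1 overlaps Syn1 on chromosome X on the opposite strand. In astrocytes it was at 634 ± 186 CPM with FGF1 and 1.66 ± 2.87 CPM with vehicle, in tanycytes at 326 ± 80.7 and 4.67 ± 8.09 CPM, and in GABA15 nuclei at 156 ± 133 CPM against 0 (SD, n = 3 each). In other neurons it was at 27.0 against 0.899 CPM (log2 fold change 4.80 ± 0.51, edgeR FDR 0.0888). The part of RNA from other cells was not tested.

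With GABA15 nuclei added to the Agrp nuclei, 12 of 3766 genes (0.319%) were called on Day 1 and 6 of 3460 (0.173%) on Day 5. The Day 1 calls kept 6 of the 7 genes called in Agrp nuclei alone and added Timp1 (FDR 0.0118) and Sh3pxd2b (FDR 0.0255) among others. Both added genes were near or at the floor in Agrp nuclei of the vehicle mice. Such genes can enter the test only through the FGF1 group, and then only as higher. On Day 5, Mylip, a ubiquitin ligase of the LDL receptor, was called there (log2 fold change -1.32, FDR 0.0401). In Agrp nuclei alone Mylip was at 886 and 718 CPM with FGF1 and 1678 and 2641 CPM with vehicle (-1.49 ± 0.35, FDR 0.0931).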
